A study of Homo sapiens with 32 samples.

Results

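PYCARD, the adaptor of the inflammasome, and 5 genes of the same machinery were followed across 4 human endometrial cancer cell lines treated with SM08502 (cirtuvivint, an inhibitor of the CDC-like kinases that act on splicing factors), the microtubule drug paclitaxel or both. The 6 members were PYCARD, NLRP1, CASP1, CASP4, IL18 and GSDMD, out of 35238 genes measured. PYCARD was selected on its measured levels, which were higher with SM08502 than with vehicle in every line, and the other 5 were set beside it for their function. For that reason the PYCARD values with SM08502, alone or in the combination, against libraries without it are given as a description without a test. Of the 6 members, 5 passed the filter of more than 1 CPM in at least 2 libraries (CPM is reads per 1000000 counted) and entered a limma fit over 17011 genes, and CASP1 did not. PYCARD passed only through its libraries with SM08502.

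An inflammasome is a protein assembly that forms in the cytosol when a sensor such as NLRP1 or NLRP3 detects a microbial or stress signal. The sensor gathers PYCARD, also called ASC, through pyrin and CARD domains, and PYCARD in turn gathers pro-caspase-1, which cuts the precursors of interleukin-1 beta and interleukin-18 and the pore former gasdermin D. PYCARD is also known as TMS1, target of methylation-induced silencing, after the promoter methylation found in many carcinoma lines, and DNA methylation was not measured here.

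Ishikawa cells carry wild-type CTNNB1, the beta-catenin gene, while Ishikawa-S33Y, SNGM and HEC265 carry a mutated CTNNB1. Cells were plated in duplicate and harvested after 24 h in vehicle (0.1% DMSO), in either drug at the IC50 of that line, or in both at those doses. Ishikawa received 11 nM paclitaxel and 80 nM SM08502, Ishikawa-S33Y 6 and 85 nM, SNGM 11.7 and 350.7 nM, and HEC265 5.6 and 149 nM. Values for the lines are given in this order unless named. Libraries were made after depletion of ribosomal RNA from 350 ng of RNA for Ishikawa and 500 ng for the other lines, so line, dose and RNA input cannot be told apart. Each of the 16 groups had 2 libraries, and p-values measure only the spread between such duplicates, which may be technical.

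Depth ran from 13.0 to 34.1 megareads counted in 30 libraries. The other 2 were shallow, replicate 2 of the Ishikawa-S33Y combination at 2.99 megareads and replicate 2 of the SNGM combination at 1.61 megareads, where 3 reads are worth 1.00 and 1.87 CPM. Duplicates differed most in Ishikawa paclitaxel, with a root mean square log2 difference of 0.576 over 8488 genes, in Ishikawa SM08502 with 0.464 and in the SNGM combination with 0.460, against 0.0848 to 0.275 in the other 13 groups. The 9 epithelial and endometrial markers summed to between 950 and 3752 CPM in every library, with EPCAM at 129 CPM or more and KRT8 at 133 CPM or more. Among markers of the endometrium, PGR was at 0 in 15 libraries and SOX17 at 0 in 7. The 6 stromal and endothelial markers summed to 717 to 1172 CPM in Ishikawa-S33Y, 31.2 to 197 in Ishikawa and 4.96 to 9.38 in SNGM and HEC265. In Ishikawa-S33Y nearly all of it was COL1A1, which stood at 1158 and 1131 CPM in vehicle and 891 and 816 in SM08502. The part of these markers in the results was not tested.

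PYCARD lies on chromosome 16 at 31201486 to 31202760 (GRCh38.p14, RefSeq), on the minus strand. The antisense RNA gene PYCARD-AS1, at 31201885 to 31203452 on the plus strand, shares 876 bases with it and runs on through its promoter. PYCARD-AS1 has no row of its own here and the strand of counting is not given in the sources used here, so its reads and those of PYCARD cannot be told apart. CASP4 lies on chromosome 11 at 104942866 to 104968574 in a cluster with its paralogs CASP5, CASP1 and CARD16, whose reads may be shared. The RefSeq promoter table held 2 of the 6 members, and the 250 bases upstream of each start are shown because the genes contrast in their CG content, the dinucleotide that DNA methylation uses. They are written 5′ to 3′ on the gene's own strand with every CG in capitals, PYCARD from chr16:31202761-31203010 and CASP4 from chr11:104968575-104968824.
PYCARD: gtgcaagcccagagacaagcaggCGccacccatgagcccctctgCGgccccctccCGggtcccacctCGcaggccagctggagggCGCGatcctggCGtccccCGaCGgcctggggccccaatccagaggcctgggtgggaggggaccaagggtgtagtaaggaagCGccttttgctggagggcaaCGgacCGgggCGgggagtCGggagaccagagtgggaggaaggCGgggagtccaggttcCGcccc
CASP4: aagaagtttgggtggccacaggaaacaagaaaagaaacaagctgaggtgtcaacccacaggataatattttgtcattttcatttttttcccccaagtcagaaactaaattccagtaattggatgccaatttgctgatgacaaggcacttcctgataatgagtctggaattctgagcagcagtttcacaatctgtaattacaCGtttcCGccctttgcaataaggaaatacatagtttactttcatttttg

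The PYCARD window held 16 CG dinucleotides and 71.2% G or C, and 41.0% of the 35116 human promoter windows of that length held at least as many CG. The CASP4 window held 2 CG and 38% G or C, and 22.9% of windows held as few. The GC box GGGCGG, read on both strands and therefore also as CCGCCC, matched at 2 places in the PYCARD window and 1 in the CASP4 window, and 42.6% of all windows held at least 1 match. These counts describe the letters alone.

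PYCARD was low wherever SM08502 was absent. Across the 16 vehicle and paclitaxel libraries its level ran from 0.154 to 0.844 CPM with a median of 0.424, which rests on 2 to 20 reads a library. Across the 16 libraries with SM08502, alone or with paclitaxel, it ran from 1.67 to 9.61 CPM with a median of 3.36. These sets did not overlap. The choice of PYCARD fixed part of this separation. The share of all genes with it was not counted, so nothing is read from it.

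In Ishikawa PYCARD stood at 0.802 and 0.154 CPM in vehicle, 0.844 and 0.488 in paclitaxel, 3.01 and 1.82 in SM08502 and 2.99 and 2.46 in the combination. In Ishikawa-S33Y it stood at 0.394 and 0.210 CPM in vehicle, 0.508 and 0.310 in paclitaxel, 6.36 and 6.32 in SM08502 and 9.61 and 6.35 in the combination. The vehicle libraries of both lines overlapped, and the highest PYCARD levels of the study were those of Ishikawa-S33Y with SM08502, alone or in combination. In SNGM the values were 0.383 and 0.586 CPM in vehicle, 0.653 and 0.402 in paclitaxel, 1.78 and 1.67 in SM08502 and 2.93 and 2.49 in the combination, the last from 4 reads of the shallow library. In HEC265 they were 0.445 and 0.463 CPM in vehicle, 0.281 and 0.315 in paclitaxel, 5.04 and 3.71 in SM08502 and 4.67 and 4.87 in the combination. Both SM08502 libraries lay above both vehicle libraries in all 4 lines, a pattern that 7.48% of the genes tested shared and that the choice of PYCARD fixed.

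**Figure D1:**
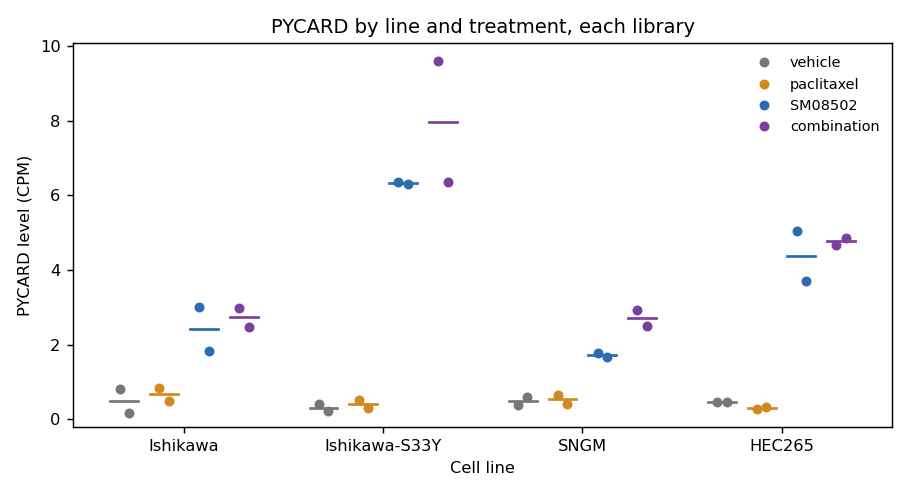
PYCARD level in CPM (vertical axis) in each of the 32 libraries, by cell line (horizontal axis) and treatment (colour). Points are single libraries and bars the mean of the 2 in a group. Libraries with SM08502 lie between 1.67 and 9.61 CPM and those without it between 0.154 and 0.844 CPM.

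As mean levels, PYCARD with SM08502 was 5.06, 21.0, 3.56 and 9.64 times its vehicle level, and with the combination 5.71, 26.4, 5.59 and 10.5 times. On the log2(CPM + 1) scale, which understates changes of low genes, the SM08502 differences were 1.22, 2.50, 0.88 and 1.88 (SE 0.21 each), with a mean over lines of 1.62 (SE 0.11).

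In the combination, as in SM08502 alone, PYCARD lay above the libraries without SM08502, and this too is a description. The mean level in the combination was 4.10, 19.5, 5.14 and 16.0 times that in paclitaxel alone. The log2 differences were 1.17 in Ishikawa (95% interval 0.73 to 1.61), 2.65 in Ishikawa-S33Y (2.21 to 3.09), 1.28 in SNGM (0.84 to 1.72) and 2.15 in HEC265 (1.71 to 2.59), with a mean over lines of 1.81 (SE 0.11). Both combination libraries lay above both paclitaxel libraries in all 4 lines, as for 6.55% of the genes tested. Of all genes, 8.3%, 22.1%, 9.28% and 8.39% were called higher in the 4 lines, 1.36% in all of them together, and 25.7% for the mean over lines, where 44.8% were called in either direction. Nothing is read from PYCARD against these shares. The size depends on the scale: with a pseudocount of 0.1 CPM the mean was 2.93, and with limma voom on recovered reads 3.20. Without the shallow libraries it was 1.90.

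Ishikawa-S33Y and HEC265 had the larger differences between the combination and paclitaxel. This order is a description as well, and whether the lines differ was not tested for PYCARD. PYCARD in vehicle had means from 0.302 to 0.485 CPM, in libraries that its choice also used. Of 6 pairs of lines 0 were called, with log2 differences of -0.15 to 0.19 and intervals within -0.59 to 0.63. Quantile normalization called 3 of these pairs, with HEC265 above Ishikawa by 0.68 and above Ishikawa-S33Y by 0.86, and SNGM above Ishikawa-S33Y by 0.43. In CPM, however, the HEC265 vehicle mean of 0.454 lay below the 0.478 of Ishikawa. The vehicle libraries held 2 to 20 PYCARD reads each and were used in its choice. Neither set of calls is therefore read as a test.

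Paclitaxel alone moved PYCARD in no line past the threshold. Against vehicle, whose libraries the choice of the gene used, the log2 differences were 0.20, 0.11, 0.04 and -0.16, with intervals within -0.60 to 0.64. Against SM08502 alone the combination differed by 0.14, 0.27, 0.44 and 0.11, none of them called, and the mean over lines was 0.24 (limma adjusted p = 0.382, with 0.047% of all genes called). Both SNGM combination libraries lay above both SM08502 libraries, one of them resting on 4 reads. The share of all genes with that pattern was not counted.

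Leukocyte markers were checked because myeloid cells are rich in PYCARD. The 12 of them summed to 7.25 to 27.6 CPM in vehicle, 7.46 to 39.8 in paclitaxel, 12.4 to 42.4 in SM08502 and 10.7 to 53.3 in the combination. The sum includes CD68, a lysosomal protein also made outside leukocytes, at 3.30 to 50.4 CPM, which in HEC265 went from 8.99 and 8.42 CPM in vehicle to 34.3 and 38.7 in SM08502. CD14, the monocyte co-receptor for endotoxin, reached 2.93 CPM in replicate 1 of the Ishikawa-S33Y combination and had 0 reads in its shallow duplicate. The pan-leukocyte PTPRC was at 0.401 to 2.38 CPM, the myeloid factor SPI1 at most 1.00 and at 0 in 9 libraries, MPO at 0 in 24 and FCGR3A at 0 in 31 of 32. The part of the marker sums in the PYCARD result was not tested. In bulk RNA, more cells of a type and more RNA per cell cannot be told apart.

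The sensor NLRP1, which is widely made in epithelia, had no called change with SM08502 against vehicle. It ran from 4.52 to 7.86 CPM in Ishikawa, 4.35 to 6.70 in Ishikawa-S33Y, 0.622 to 2.19 in SNGM and 2.66 to 5.25 in HEC265 over all treatments. With SM08502 against vehicle its log2 differences were -0.08, -0.35, -0.08 and 0.21. The SNGM difference for the combination against paclitaxel, -0.47 (limma adjusted p = 0.203), was called without replicate 1 of that combination (adjusted p = 0.0419), which leaves the shallow library alone.

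CASP1, the effector caspase that PYCARD recruits, was hardly detected. It had 0 reads in all 8 Ishikawa and all 8 Ishikawa-S33Y libraries, which allows up to 0.173 to 0.230 CPM in the former and up to 0.126 to 1.00 CPM in the latter (3 reads, counting error only). In SNGM it reached at most 0.235 CPM or 7 reads, and in HEC265 at most 0.0478 CPM or 1 read. The 37 reads in total were split as 27 in libraries without SM08502 and 10 in libraries with it, too few to compare treatments at this depth.

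CASP4, the human caspase that senses intracellular endotoxin and cuts gasdermin D without PYCARD, was low in Ishikawa-S33Y in every treatment. Ishikawa libraries held 15.8 to 21.6 CPM, SNGM libraries 13.2 to 15.8 and HEC265 libraries 18.1 to 22.5, while Ishikawa-S33Y libraries held 0 to 1.28 CPM. The value of 0 came from the shallow combination library. In vehicle, CASP4 stood at 15.8 and 20.1 CPM in Ishikawa and at 0.936 and 0.880 in Ishikawa-S33Y, 19.8 times lower by the means, with a log2 difference of -3.30 (95% interval -3.74 to -2.87, limma adjusted p = 8.82e-11). With SM08502 against vehicle its log2 differences were 0.12, 0.14, -0.06 and 0.14, none called. The combination against paclitaxel gave -0.50 in Ishikawa-S33Y (adjusted p = 0.0653). Over all libraries this was called with a pseudocount of 0.1 CPM (-1.71, adjusted p = 0.0285) and under quantile normalization (-0.44, adjusted p = 0.0362). It was also called without replicate 1 of that combination (-1.03, adjusted p = 6.48e-05), which leaves the shallow library alone.

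IL18, the cytokine precursor that caspase-1 and caspase-4 mature, differed in vehicle between all 4 lines. Its vehicle libraries held 85.7 and 73.4 CPM in SNGM, 46.9 and 42.2 in HEC265, 9.06 and 10.5 in Ishikawa and 5.91 and 7.09 in Ishikawa-S33Y. With SM08502 it stood at 74.8 and 76.6 CPM in SNGM, 35.1 and 36.3 in HEC265, 10.5 and 16.1 in Ishikawa and 7.76 and 9.18 in Ishikawa-S33Y. The log2 differences with SM08502 against vehicle were 0.38 in Ishikawa, 0.34 in Ishikawa-S33Y, -0.31 in HEC265 and -0.07 in SNGM. None of these was called over all 32 libraries (lowest adjusted p = 0.168), nor was their difference between lines (F-test adjusted p = 0.156). In a fit to the 8 HEC265 libraries alone the HEC265 fall was called, with SM08502 against vehicle (adjusted p = 9.43e-04) and with the combination against paclitaxel (-0.36, adjusted p = 2.87e-04). The Ishikawa difference was called only without replicate 1 of Ishikawa SM08502 (adjusted p = 0.0213).

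GSDMD, whose cleaved form makes the pores of pyroptosis, was present in SNGM and HEC265 and close to the limit of counting in the Ishikawa pair. In SNGM it stood at 16.5 and 14.6 CPM in vehicle, 17.3 and 15.3 in paclitaxel, 23.7 and 25.3 in SM08502 and 24.5 and 9.33 in the combination, the last from 15 reads of the shallow library. In HEC265 it stood at 10.6 and 11.0 CPM in vehicle, 11.7 and 10.2 in paclitaxel, 16.0 and 15.6 in SM08502 and 15.2 and 14.3 in the combination. Within each of these lines every library with SM08502 lay above every library without it, except that shallow one. The share of all genes with such a pattern within a line was not counted, so nothing is read from it. Ishikawa libraries held 0.308 to 0.906 CPM and Ishikawa-S33Y libraries 0.508 to 1.05, and there the treatments overlapped.

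With SM08502 against vehicle, GSDMD was 1.58 times higher in SNGM (log2 0.63, 95% interval 0.10 to 1.15, limma adjusted p = 0.152) and 1.46 times higher in HEC265 (log2 0.51, interval -0.01 to 1.04, adjusted p = 0.205), and its mean over lines was 0.32 (adjusted p = 0.0504), so none was called over all 32 libraries. Without the 2 shallow libraries the same differences were called, with adjusted p of 0.00587 in SNGM, 0.0145 in HEC265 and 0.00115 for the mean. Leaving out either SNGM combination library alone gave an adjusted p of 0.00760 or 0.00750 for SNGM and 0.0181 or 0.0179 for HEC265. Limma voom on recovered reads gave 0.00216 for SNGM and 0.0184 for HEC265. For the combination against paclitaxel, GSDMD differed by -0.09 in SNGM with the shallow library (adjusted p = 0.883) and by 0.56 without it (adjusted p = 0.0462), and the mean over lines by 0.06 and 0.24 (adjusted p = 0.750 and 0.0190). With the shallow library as the only one of its group the SNGM difference was -0.74 (adjusted p = 0.00313), opposite in sign. The difference of the drug effect between lines was not called for GSDMD (F-test adjusted p = 0.495 for SM08502 against vehicle).

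**Figure D2:**
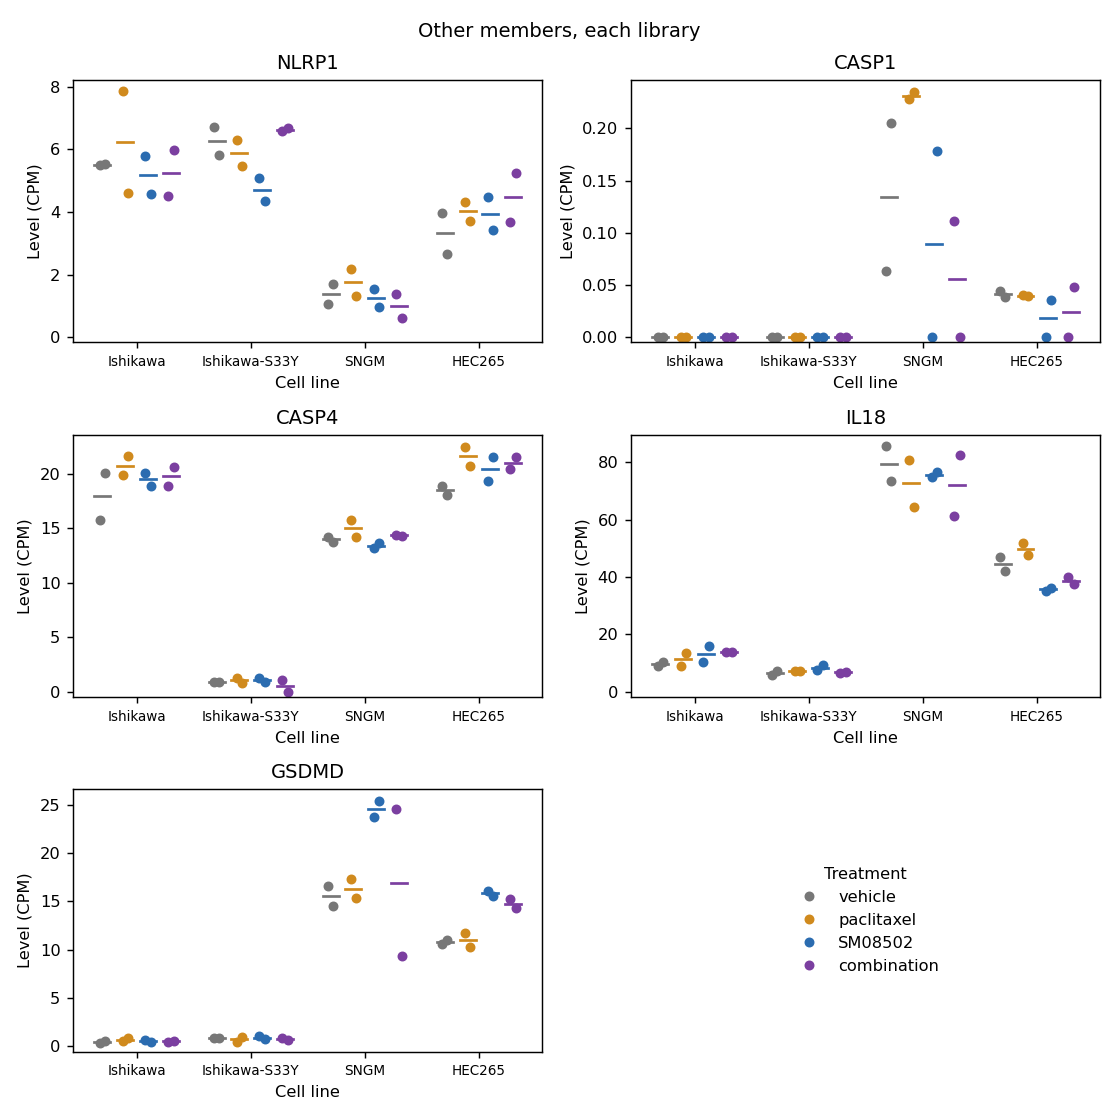
Levels in CPM (vertical axes, each from 0) of NLRP1, CASP1, CASP4, IL18 and GSDMD in each library, by cell line and treatment (colour); bars are means of 2 libraries. CASP4 lies at 0 to 1.28 CPM in Ishikawa-S33Y against 13.2 CPM or more elsewhere, and GSDMD in HEC265 is at 14.3 to 16.0 CPM with SM08502 against 10.2 to 11.7 without.

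Counted together, NLRP1, CASP4, IL18 and GSDMD made 16 comparisons of SM08502 with vehicle, 4 in each line. None was called, at log2 differences of -0.35 to 0.63 with intervals within -0.85 to 1.15, and 2 passed an unadjusted limma p under 0.05. The share of all genes called was 15.2%, 29.1%, 7.86% and 14.7%. Limma voom, a fit without the shallow libraries and fits within each line each called 2, which were GSDMD in SNGM and HEC265 in the first pair of fits and GSDMD and IL18 in HEC265 in the last. The combination against paclitaxel called 0 of 16 (1 under an unadjusted p of 0.05), against 14.4%, 39.4%, 15.9% and 14.9% of all genes in either direction.

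**Figure D3:**
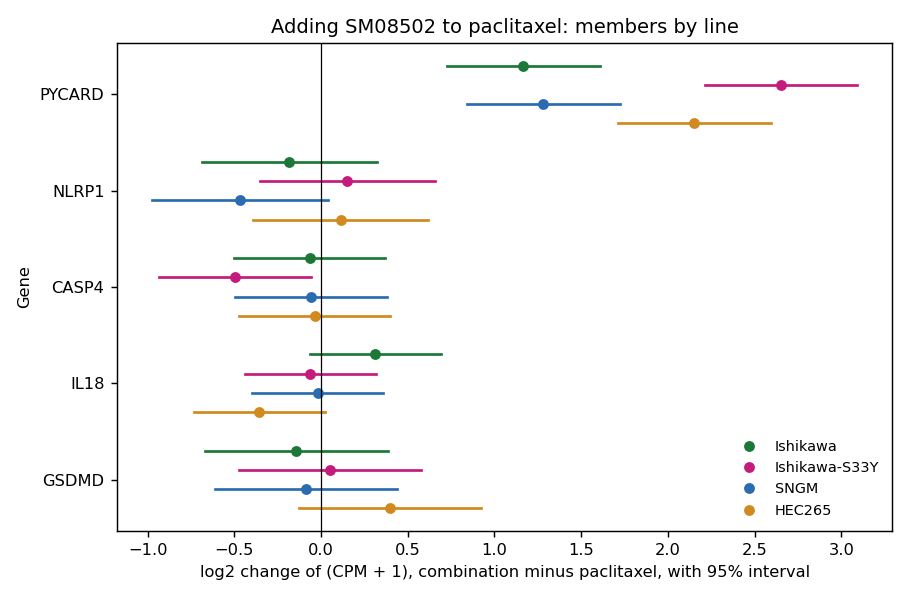
Log2 change of (CPM + 1) in the combination against paclitaxel alone (horizontal axis) for PYCARD and the 4 other members in the fit, 1 point per cell line (colour), with 95% intervals from the limma fit over 32 libraries. PYCARD lies at 1.17 to 2.65, and the other 16 values lie between -0.50 and 0.40. The intervals of PYCARD belong to its description and are not read as a test.

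Paclitaxel against vehicle called 0 of 20 member comparisons, and 0 had an unadjusted limma p under 0.05. Here the background was also nearly empty, at 0.0118%, 0%, 0.0176% and 0.00588% of genes. For the 4 tested members other than PYCARD, the combination against SM08502 alone called 0 of 16 (2 under an unadjusted limma p of 0.05). The backgrounds were 0%, 0.129%, 0.253% and 0.00588%. The departure from additivity was called for 0 of the 4 members tested and 0% of all genes.

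In vehicle, 18 of 30 pairwise comparisons between lines were called by limma over the 5 tested members, a share within the range for all genes. The 5 include PYCARD, whose choice used these vehicle libraries. All genes gave calls of 48.3% for Ishikawa-S33Y against Ishikawa, 66.8% for SNGM against Ishikawa, 63.3% for HEC265 against Ishikawa, 60.8% for SNGM against Ishikawa-S33Y, 58% for HEC265 against Ishikawa-S33Y and 54.9% for HEC265 against SNGM. GSDMD ran in the order SNGM, HEC265, Ishikawa-S33Y and Ishikawa, with means of 15.6, 10.8, 0.863 and 0.461 CPM. The first and second did not differ past the threshold (limma adjusted p = 0.111), nor did the third and the fourth (0.261), and both of these steps were called without the shallow libraries (0.00614 and 0.0395). SNGM held 33.7 times the GSDMD level of Ishikawa.

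The order of IL18 was SNGM, HEC265, Ishikawa and Ishikawa-S33Y, with each step called. The last was the smallest, at a log2 difference of -0.53 (limma adjusted p = 0.0213), and lost its call after median re-centring (0.0726), in a fit to those lines alone (0.0562), without replicate 2 of Ishikawa vehicle (0.138) and without replicate 1 of Ishikawa-S33Y vehicle (0.162). CASP4 did not differ past the threshold between HEC265, Ishikawa and SNGM (adjusted p = 0.135 to 0.851), and Ishikawa-S33Y lay below all of them. SNGM was called lower than both others without the shallow libraries (adjusted p = 0.0245 against Ishikawa and 0.0133 against HEC265). NLRP1 was lowest in SNGM, at a mean of 1.38 CPM, against 3.31 in HEC265, 5.51 in Ishikawa and 6.27 in Ishikawa-S33Y, where the last pair did not differ past the threshold (adjusted p = 0.638). HEC265 lay below Ishikawa by 0.61 on the log2 scale (adjusted p = 0.0336) and below Ishikawa-S33Y by 0.77 (adjusted p = 0.00999), and both differences turned to 0.22 and 0.15 above them, not called, under quantile normalization. Without replicate 2 of HEC265 vehicle neither was called (0.275 and 0.133), and the step from SNGM to HEC265, 0.86 (adjusted p = 0.00502), lost its call without replicate 1 of SNGM vehicle (0.0727) or of HEC265 vehicle (0.0842).

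For the wider pathway, 58 genes were listed by role, the members included, of which 57 remain without PYCARD and 39 passed the filter. With SM08502 against vehicle, averaged over lines, 10 of the 39 rose and 4 fell, which is 35.9% called against 38.5% of all genes (22.6% higher and 15.8% lower), and the list's median log2 difference was 0.10 against 0.05 over all genes. With the combination against paclitaxel 10 rose and 3 fell, which is 33.3% against 44.8% (25.7% higher and 19.1% lower), with medians of 0.02 and 0.03. Neither share exceeds the background in this fit. Without the shallow libraries 18 genes of the list were called for the combination against paclitaxel, and the share of all genes in that fit is not given here. Paclitaxel against vehicle called 0 of 39, as it did 0% of all genes, at a median of 0.03 for the list.

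Among sensors and their regulators 12 were tested, and 4 rose and 1 fell when SM08502 was added to paclitaxel. Beside this and the role counts below, 25.7% of all genes were called higher and 19.1% lower. Nothing is read from the counts by role. NEK7, the kinase that licenses NLRP3, changed by 0.52 (SE 0.08, limma adjusted p = 3.06e-05) and CARD8, a sensor that signals to caspase-1 without PYCARD, by 0.45 (SE 0.08, adjusted p = 1.89e-04). In Ishikawa-S33Y CARD8 went from 24.8 and 25.4 CPM in paclitaxel to 43.5 and 38.1 in the combination. NAIP, which senses bacterial flagellin and secretion needles, rose by 0.34 (adjusted p = 0.00709), called singly in Ishikawa-S33Y alone. DPP8, a protease that restrains NLRP1 and CARD8, fell by 0.28 (adjusted p = 1.14e-04).

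TXNIP, the thioredoxin-binding protein linked to NLRP3, moved in opposite directions in different lines. In HEC265 it went from 18.0 and 18.9 CPM in paclitaxel to 46.1 and 45.0 in the combination (log2 1.26, limma adjusted p = 2.73e-07), and in Ishikawa from 237 and 197 to 163 and 156 (log2 -0.44, adjusted p = 0.0138). In Ishikawa-S33Y it rose by 0.46 (adjusted p = 0.00313), and in SNGM, where it was highest, the difference was -0.04.

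Of the adaptor role 0 of the 5 other genes passed the filter, so PYCARD was its only tested member. Of 3 caspases tested, CASP8 fell by 0.17 (limma adjusted p = 0.0271), while CASP4 was not called. Of 10 cytokines and receptors 1 rose, IL18BP, the secreted antagonist of interleukin-18, by 0.40 (SE 0.11, adjusted p = 0.00567). IL1B and IL1A were not called.

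Of 5 pore formers and rupture factors 2 rose. GSDMB, a gasdermin of epithelia, had the largest change of the list after PYCARD, 0.66 (SE 0.10, limma adjusted p = 2.66e-05). In Ishikawa-S33Y it went from 1.73 and 1.55 CPM in paclitaxel to 6.01 and 5.01 in the combination and in HEC265 from 0.882 and 1.14 to 2.70 and 3.68, while SNGM gave -0.01. NINJ1, which ruptures the plasma membrane after pore formation, rose by 0.22 (SE 0.05, adjusted p = 0.00106). In this comparison the mean rests on Ishikawa-S33Y, at 0.80 (adjusted p = 3.18e-06), while the other 3 lines gave -0.11 to 0.16 with no call. With SM08502 against vehicle NINJ1 was called higher in HEC265 (0.52, limma adjusted p = 0.00132) as well as in Ishikawa-S33Y (0.53, adjusted p = 4.70e-04). Ishikawa gave -0.18 and SNGM 0.07 there, not called.

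Of 9 inhibitors and upstream factors 3 rose and 1 fell. SERPINB1, an inhibitor of neutrophil proteases and of inflammatory caspases, rose by 0.44 (SE 0.06, limma adjusted p = 2.43e-06). It was called higher in each of the 4 lines, for SM08502 against vehicle as well as for the combination against paclitaxel. Of all genes, 0.876% and 1.36% were called higher in all 4 lines in these comparisons. Levels in HEC265 were 16.1 and 15.5 CPM in vehicle, 17.6 and 17.7 in paclitaxel, 20.0 and 22.0 in SM08502 and 28.2 and 27.5 in the combination. IRF1, an interferon-induced transcription factor, rose by 0.35 (SE 0.07, adjusted p = 3.01e-04), called singly in Ishikawa-S33Y alone. IRF2, a factor known to act on the GSDMD promoter, rose by 0.19 (adjusted p = 0.0461), a call that most alternatives lost. It was lost with a pseudocount of 0.1 (adjusted p = 0.0546), without a filter (0.0614), after median re-centring (0.0714) or quantile normalization (0.116), under voom (0.233), with the replicate block (0.0587), without the shallow libraries (0.07, adjusted p = 0.313) and in 26 of 32 fits that left out a library. GBP1, an interferon-induced GTPase that brings endotoxin to caspase-4, fell by 0.42 (SE 0.09, adjusted p = 5.42e-04) and was not called under limma voom (adjusted p = 0.0682). In Ishikawa it went from 18.0 and 12.8 CPM in paclitaxel to 6.17 and 6.27 in the combination.

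**Figure D4:**
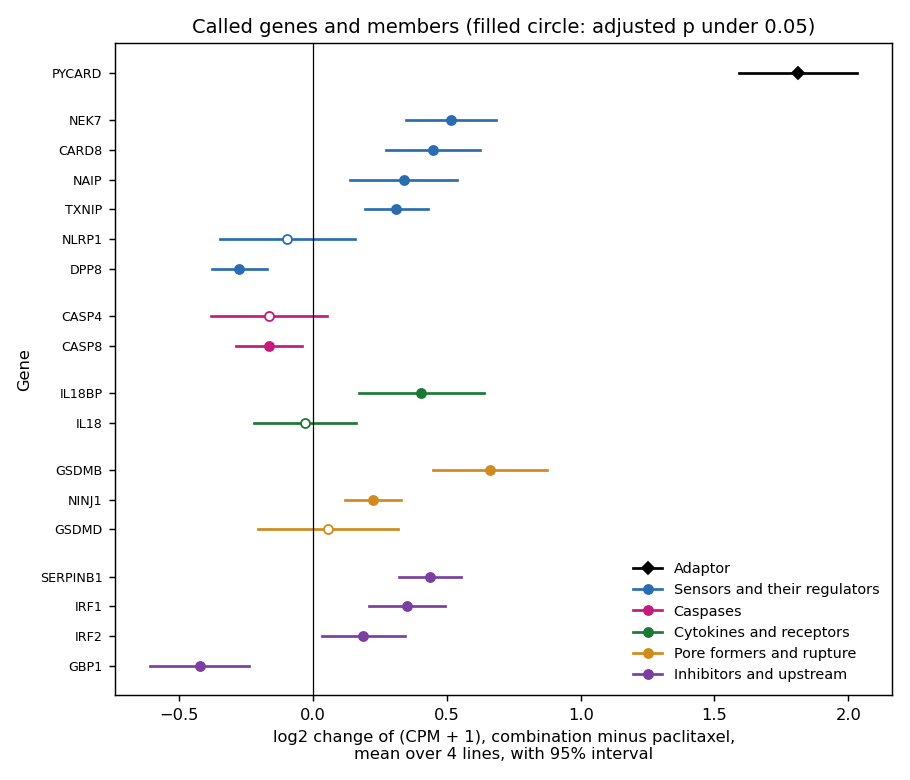
Log2 change of (CPM + 1) in the combination against paclitaxel, mean over 4 lines (horizontal axis), with 95% limma intervals, for PYCARD, the 4 other tested members and the 13 called genes of the list, coloured by role and sorted within it. Filled circles have an adjusted p under 0.05. The diamond is PYCARD, given as a description, and its interval is not read as a test. It lies at 1.81, and the next is GSDMB at 0.66.

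The genes beside PYCARD on chromosome 16 moved less than PYCARD. Of 9 neighbours listed 8 have rows and 7 were tested, among them KAT8, BCKDK, PRSS8, PRSS36, TRIM72 and ITGAM, and PYDC1 was below the filter. With SM08502 against vehicle 0 of their 28 changes by line were called higher and 2 lower by limma, at log2 differences of -0.58 to 0.39, where 6.5%, 18.5%, 3.8% and 9.27% of all genes were called higher and 8.68%, 10.6%, 4.06% and 5.39% lower. With the combination against paclitaxel 1 was higher and 5 lower, from -1.16 to 0.60, where 8.3%, 22.1%, 9.28% and 8.39% of all genes were called higher and 6.14%, 17.4%, 6.6% and 6.53% lower. Averaged over lines KAT8, a histone acetyltransferase, rose by 0.30 with SM08502 against vehicle (limma adjusted p = 0.0215). PRSS8, an epithelial membrane protease, fell by 0.57 on average with the combination against paclitaxel (limma adjusted p = 1.07e-06).

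Likeness to PYCARD was measured as Pearson's r over the 16 group means, each line centred on its own mean. The 5 tested genes most like it were TPM3P9 (0.993), ZNF134 (0.990), MCMDC2 (0.988), DCUN1D2 (0.988) and PLCD4 (0.988). These points share libraries and the drug design, and no p is given. TPM3P9 went from 12.2 and 12.9 CPM in HEC265 paclitaxel to 27.9 and 31.1 in the combination and in SNGM from 12.1 and 11.7 to 25.9 and 24.9, and DCUN1D2 in Ishikawa-S33Y from 12.8 and 13.9 to 50.2 and 52.2. Both were already present at 10 CPM or more in vehicle, where PYCARD was below 1 CPM. The mean changes over lines were 1.17 for TPM3P9, 1.17 for DCUN1D2, 0.89 for PLCD4, 0.78 for ZNF134 and 0.69 for MCMDC2, all below the 1.81 of PYCARD.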

How the data were processed

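RNA of 32 libraries (4 lines, 4 treatments, 2 replicates) was sequenced on a NovaSeq6000, and the submitters' processing notes name bcl2fastq, STAR, kallisto and GRCh38, without versions or roles. Strand of counting is not given in the sources used here. Values came as log10(CPM + 1), the unit deposited by the authors, checked by taking them back to CPM, which sum to 1000000 CPM in each library. A log2 unit had been assumed in planning, and the tests were run on log2(CPM + 1) as planned. Whole reads (within 0.1 read) were recovered for 100% of values and gave the depths. Genes with CPM above 1 in at least 2 libraries were kept (17011), and limma 3.58.1 in R 4.3.3 fitted 16 group means to all 32 libraries with an intensity trend (16 residual and 4.90 prior degrees of freedom). Tests were two-sided, p-values were Benjamini-Hochberg adjusted over all genes tested, and calls were made at 0.05. The method was tested on simulated data for the combination against paclitaxel, mean over lines (17011 genes), and recovered 54 of 60 genes changed 1.5-fold, 69 of 70 at 2-fold and 70 of 70 at 4-fold, with 18 of 16811 unchanged genes called. The changed genes were drawn from better expressed genes only, and all genes and groups had the same setting for the spread between duplicates. These rates therefore do not cover low genes such as PYCARD, or groups whose duplicates differed more.

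The members and lists were chosen with earlier results of these data known. From the pathway list, genes beyond the members were named where called with SM08502 against vehicle in the same direction in at least 2 lines or for the combination against paclitaxel averaged over lines, at most 12 by size; CASP8, the next by that rule, is named because it is the only caspase called. MAP3K20 has no row under that or its older symbol. Splicing tables were not analysed here. Alternatives were other pseudocounts, filters, scalings, variance models, limma voom, a replicate block, single-line fits and leaving out libraries. Some genes of the lists are counted but not reported here by name. The planned tests of PYCARD in the combination against paclitaxel and against SM08502 alone are not given, because its selection and the filter rest on libraries with SM08502.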

Additional observations from a re-analysis of the deposited data

Results flagged for a closer look

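In 10 cases the effect of SM08502 differed between the 4 cell lines by an F-test in the limma fit (adjusted p). For SM08502 against vehicle, where 12.4% of genes differed, these were GBP1 (adjusted p = 0.00462), which fell by 1.34 on the log2 scale in Ishikawa against -0.04 in HEC265, NAIP (0.0118), which rose by 1.04 in Ishikawa against -0.28 in SNGM, TXNIP (9.08e-06), which rose by 1.07 in HEC265 and fell by 0.59 in Ishikawa, and NINJ1 (0.00376), which rose by 0.53 in Ishikawa-S33Y against -0.18 in Ishikawa.

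For the combination against paclitaxel, where 21.7% of genes differed, GSDMB (adjusted p = 0.00659) ranged from -0.01 in SNGM to 1.30 in Ishikawa-S33Y, GBP1 (0.00368) from -1.17 in Ishikawa to 0.09 in Ishikawa-S33Y, and NAIP (0.0465) from 0.03 in SNGM to 0.97 in Ishikawa-S33Y. TXNIP (6.31e-06) ranged from -0.44 in Ishikawa to 1.26 in HEC265, DPP8 (0.00435) from -0.66 in Ishikawa-S33Y to 0.03 in Ishikawa, and NINJ1 (5.26e-04) from -0.11 in Ishikawa to 0.80 in Ishikawa-S33Y. Doses and, for Ishikawa, RNA input also differed between lines and cannot be told apart from them.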

How the results depend on the processing

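The mean PYCARD change for the combination against paclitaxel was 1.74 to 3.20 under the alternatives that kept the gene, and 1.75 to 1.88 when each library was left out in turn. Under the stricter filter (mean log2(CPM + 1) of at least 2) PYCARD dropped out. The count of calls for the other members with SM08502 against vehicle went from 0 to 2 under limma voom, without libraries under 5 megareads and in single-line fits. Leaving out libraries in turn also moved calls of members other than PYCARD. One such case was the GSDMD departure from additivity, at -0.43 without replicate 1 of the SNGM combination. With each library left out in turn, the list counts ran from 10 to 17 for SM08502 against vehicle. For the combination against paclitaxel they ran from 11 to 17, and pairwise vehicle calls from 16 to 20. Without libraries under 5 megareads the list count for the combination against paclitaxel was 18. Under quantile normalization NLRP1 in HEC265 was 0.22 above Ishikawa and 0.15 above Ishikawa-S33Y, reversed from the reported values; the cause was not tested.

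Replicate numbers did not pair the samples alike throughout. Deviations of same-numbered libraries correlated at -0.54 to 0.85 in Ishikawa, -0.06 to 0.13 in Ishikawa-S33Y, -0.59 to 0.78 in SNGM and -0.12 to 0.26 in HEC265. The 0.85 was paclitaxel with SM08502. In SNGM vehicle with paclitaxel gave 0.78, SM08502 with the combination 0.52, and pairs across these -0.59 to -0.53. Libraries of different treatments thus shared deviations in Ishikawa and SNGM, which the main fit left out. With a replicate block the mean PYCARD change was 1.81 and the list counts were 14 and 13. With numbers crossed in the Ishikawa vehicle, SNGM vehicle and SNGM paclitaxel groups, chosen after seeing the data, the list counts were 13 and 14. CASP4 in the Ishikawa-S33Y combination against paclitaxel (limma adjusted p = 0.0359) and the GSDMD mean for SM08502 against vehicle (0.0446) were called with the block. Median re-centring removes a median difference over all genes of 0.11 for SM08502 against vehicle in Ishikawa-S33Y. Depth limits PYCARD in vehicle and paclitaxel, CASP1 everywhere and GSDMD in the Ishikawa pair.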
